A study of Mus musculus with 18 samples.

Results

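The genes described here encode the subunits of the mitochondrial respiratory chain and of the ATP synthase, measured as RNA in mouse alveolar macrophages. Members were chosen by symbol: the Nduf, Sdh, Uqcr, Cox and Atp5 subunit genes of the nucleus and the protein-coding mt-Nd, mt-Cytb, mt-Co and mt-Atp genes of the mitochondrial genome, with a mean level of at least 1 CPM (counts scaled to a common library total) over all libraries. Of 32789 genes in the table, 100 matched by name and 91 were kept, 78 of them nuclear and 13 mitochondrial. Ndufa4l2 and Cox6a2, with 25.03 and 0.465 CPM, and the rows Ndufb1-ps and Cox5b-ps, with 39.8 and 0.0950 CPM, were left out by name. A further 5 rows were under the level minimum: Cox4i2 at 0.168 CPM, a second row named Atp5o at 0.151, Cox8b at 0.0151, and Cox7b2 and Cox8c at 0. The member nearest the minimum was Cox7a1 at 2.03 CPM, and the next was Ndufc1 at 14.7. All 91 members passed the filter on low counts, among 12900 genes tested.

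The respiratory chain passes electrons from NADH through complex I, or from succinate through complex II, to complex III, cytochrome c and complex IV, and the ATP synthase (complex V) uses the resulting proton gradient to make ATP. Complexes I, III, IV and V combine subunits made from nuclear and from mitochondrial DNA, while complex II is wholly nuclear. Alveolar macrophages clear surfactant lipid from the airspaces and are known for reliance on mitochondrial oxidation, and HIF-1 is known in other cells for exchanging some subunits for hypoxic isoforms.

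Bulk RNA sequencing was made from macrophages recovered by lung lavage and selected with CD11c beads. The 3 knockout groups are labelled CD11c-Cre with Vhl-Hif1-KO, with Vhl-Hif2-KO, where Hif2 is the gene Epas1, or with Vhl-Hif1-Hif2-KO, called triple here, so all 3 lacked Vhl, whose protein marks HIF alpha subunits for degradation. Each had its own control group, labelled flox-flox for the same genes; the labels say nothing of Cre in them. There were 6 groups of 3 libraries, 18 in all. CD11c-Cre is also active in dendritic cells, and age, sex and the number of animals behind a library are not given in the labels, so p-values measure the spread between these libraries, which may be technical. Total counts ran from 19230000 to 34015000 per library.

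Vhl RNA was 12.2 to 20.1 CPM in the 9 control libraries and 1.92 to 3.09 in the 9 knockout libraries. Its log2 fold changes were -2.55 in the Vhl/Hif1a, -3.05 in the Vhl/Hif2a and -2.56 in the triple knockout, all called with edgeR. Hif1a totals did not follow the labels: they were 166 to 209 CPM in the libraries labelled Vhl/Hif1a knockout (log2 fold change -0.24), 236 to 241 in those labelled triple knockout (0.19) and 58.7 to 78.6 in those labelled Vhl/Hif2a knockout (-1.71, called with edgeR, adjusted p = 4.3e-06). Epas1 totals, too, were higher under the Vhl/Hif2a knockout label (log2 fold change 0.97, edgeR adjusted p = 0.0019). A gene total includes reads outside a deleted stretch and does not check the deletion, so every group is called here by its label, and each direction below rests on those labels. Of 20 alveolar macrophage markers all had at least 1 CPM, and their summed level was 33988 to 50857 CPM. Lists for T or NK cells, B cells, eosinophils or mast cells, endothelium or fibroblasts and erythrocytes had no gene with a mean of 1 CPM, although 1 Vhl/Hif1a control library reached a summed 22.5 CPM for endothelium or fibroblasts. Neutrophil markers summed to 76.7 to 203 CPM with Ly6g, Elane and Mpo at 0, dendritic cell markers to 201 to 309, monocyte or interstitial macrophage markers to 96.9 to 165 and lung epithelial markers to 165 to 556.

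One library stood apart in the members themselves. In triple control 2 the 13 mitochondrial members took 0.709% of all counts, against 2.80% in control 1 and 2.55% in control 3, or 26.5% of the mean of those 2. It was the lowest of the 18 libraries for all 13 mitochondrial members and the highest for 55 of the 78 nuclear members. Its difference from controls 1 and 3 had a median of -1.88 on the log2 scale for mitochondrial members, 0.41 for nuclear members and 0.01 for all genes tested. It also differed with transcript length, with a median of 0.24 over the 2580 genes with the shortest transcripts and -0.16 over the 2577 with the longest. The nuclear members are short genes: their median transcript length was 849.5 nucleotides, against 2859 for all genes tested, and 62 of the 78 were among those 2580 shortest. The part of length or RNA quality in the values of this library was not tested, and results of the triple cross are given with and without it.

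Levels between genes are compared as CPM per kilobase of transcript, averaged over the 18 libraries. Nuclear members ran from 4.47 for Ndufb2 to 379.5 for Atp5b, the catalytic beta subunit of the ATP synthase, with a median of 66.9. By complex, the nuclear medians on this scale were 41.9 for complex I, 71.4 for complex II, 77.9 for complex III, 121 for complex IV and 113 for the ATP synthase. Complex II ran from 28.9 for Sdhc to 96.3 for Sdha, complex III from 24.9 for Uqcrq to 130 for Uqcrb, and complex IV from 5.17 for Cox7a1 to 318 for Cox4i1. The nuclear members lie on 19 chromosomes, with at most 6 on any 1 of them. Mitochondrial members were higher, from 670 for mt-Nd5 to 4681 for mt-Atp6, with a median of 1544, and the lowest of them lay above the highest nuclear member. The complex IV core genes mt-Co1, mt-Co2 and mt-Co3 had 4372, 3526 and 3056, while all but 1 of the 7 complex I genes were below the mitochondrial median or at it. The exception was mt-Nd4 at 1709, whose exons overlap mt-Nd4l on the same strand, as those of mt-Atp6 overlap mt-Atp8 and mt-Co3. How reads in such overlaps were assigned is not given in the sources used here. Among nuclear members, 28 share exon sequence with another gene, 23 of them only with one on the opposite strand.

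Shares of counts were summed over the members in each library. The mitochondrial members took 2.72%, 2.54% and 1.94% in the Vhl/Hif1a controls and 3.07%, 2.65% and 1.75% in the matching knockouts. In the Vhl/Hif2a cross they took 2.40%, 2.81% and 2.54% in controls and 2.75%, 2.07% and 2.16% in knockouts. In the triple knockouts they took 2.292%, 3.003% and 2.83%. The ranges of knockout and control overlapped in every cross. The nuclear members took 0.590% to 0.687% in every library except triple control 2, where they took 0.791%. The ratio of mitochondrial to nuclear member counts was 0.897 in that library and 2.59 to 4.94 in the others, lowest among these in Vhl/Hif1a knockout 3 and highest in Vhl/Hif1a knockout 1. By complex, nuclear complex I took 0.1506% to 0.1634% in the Vhl/Hif2a knockouts and 0.1405% to 0.1503% in their controls. As a share of nuclear counts these ranges overlapped, with 0.1540% in knockout 3 and 0.1543% in control 3. Complex II took 0.0503% to 0.0528% in the Vhl/Hif1a knockouts and 0.0541% to 0.0564% in their controls. Elsewhere the ranges by complex overlapped.

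**Figure D1:**
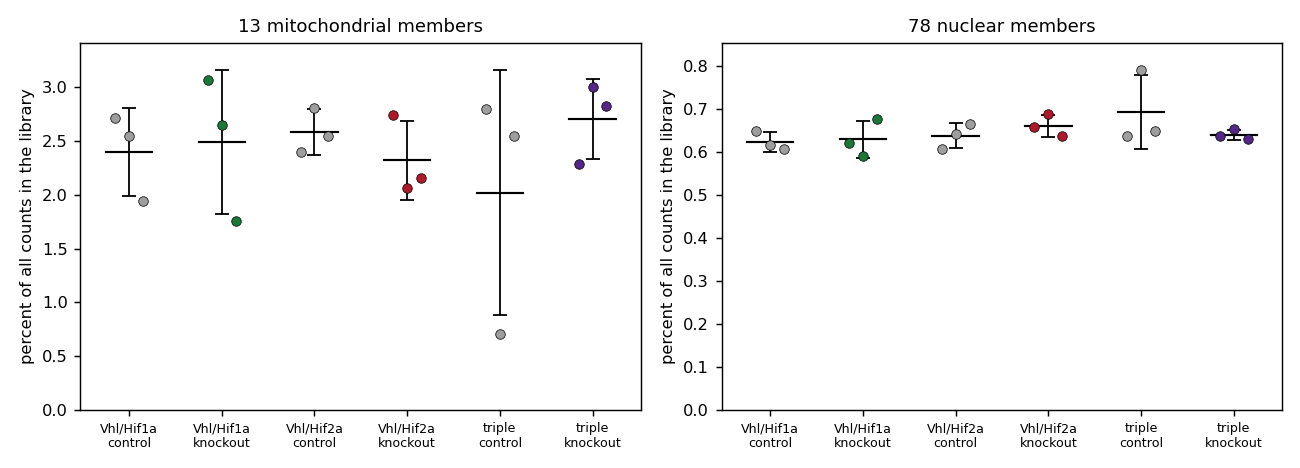
Percent of all counts in a library that fell in the 13 mitochondrial members (left) and the 78 nuclear members (right), by group; points are libraries, bars the mean ± SD (n = 3). Triple control 2 is the lowest library on the left, at 0.709%, and the highest on the right, at 0.791%, and knockout and control ranges overlap in each cross.

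In the libraries labelled Vhl/Hif2a knockout, 5 of the 91 members were called with edgeR at an adjusted p under 0.05, 3 higher and 2 lower, where 14.7% of all genes tested were called, 7.68% higher and 7.01% lower. Ndufa4 fell most, Ndufv3 and Cox7a1 rose about as far as each other, and Ndufa9 and Sdhb changed by small amounts. The other 86 members lay between -0.39 and 0.39 on the log2 scale. The nuclear members had a median log2 fold change of 0.10 and the mitochondrial members of -0.12, beside 0.00 for all genes tested and 0.10 for all genes of those 2580 short genes. Leaving out 1 library at a time, the nuclear median ranged from 0.06 without control 1 to 0.14 without control 3, and the mitochondrial median from -0.22 without knockout 1 to -0.01 without control 2. DESeq2 called the same 5 members. A fit of only these 2 groups called 9, adding Ndufa6, Ndufa7, Cox8a and Atp5g2, named here after their calls were seen, all higher.

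Ndufa4 (ENSMUSG00000029632, GRCm38 chr6:11900292-11907497, minus strand) encodes a subunit first assigned to complex I and now placed in complex IV. It was at 27.6, 30.1 and 26.6 CPM in the Vhl/Hif2a knockouts and at 66.3, 79.1 and 79.2 in their controls, with every knockout library far below every control. The mean was 28.1 ± 1.79 CPM against 74.9 ± 7.39 (SD, n = 3), or 37.5% of control. Its log2 fold change was -1.41 ± 0.13 (SE), with an edgeR adjusted p of 8.3e-07. Without any 1 library of the cross it stayed between -1.49 and -1.37. In the other crosses it was at 78.4, 74.6 and 50.3 CPM in the Vhl/Hif1a controls and 67.6, 64.5 and 74.4 in the knockouts, and at 84.8, 92.0 and 82.0 in the triple controls and 83.0, 83.6 and 82.9 in the triple knockouts. Knockout and control ranges overlapped in both of those crosses.

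Ndufa4l2, left out of the members by name, encodes a paralogue of NDUFA4 known as a HIF-1 target. Per kilobase of transcript it was at 163, 148 and 169 CPM in the Vhl/Hif2a knockouts and at 5.64, 1.41 and 0.249 in their controls, a log2 fold change of 6.09 ± 0.49 (SE, edgeR adjusted p = 1.6e-07). The control value rested much on control 1, and without that library the log2 fold change was 7.52. On the same scale Ndufa4 was at 45.3, 49.3 and 43.6 in these knockouts and 109, 130 and 130 in the controls. Ndufa4l2 thus made up 78.3%, 75.0% and 79.5% of the summed level of the pair in the knockouts and 4.93%, 1.07% and 0.191% in the controls. The sum itself was higher in the knockouts, at 209, 197 and 212, than in the controls, at 114, 131 and 130. In the Vhl/Hif1a and triple crosses Ndufa4l2 had 0 to 4 counts in a library, too few for a fold change.

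**Figure D2:**
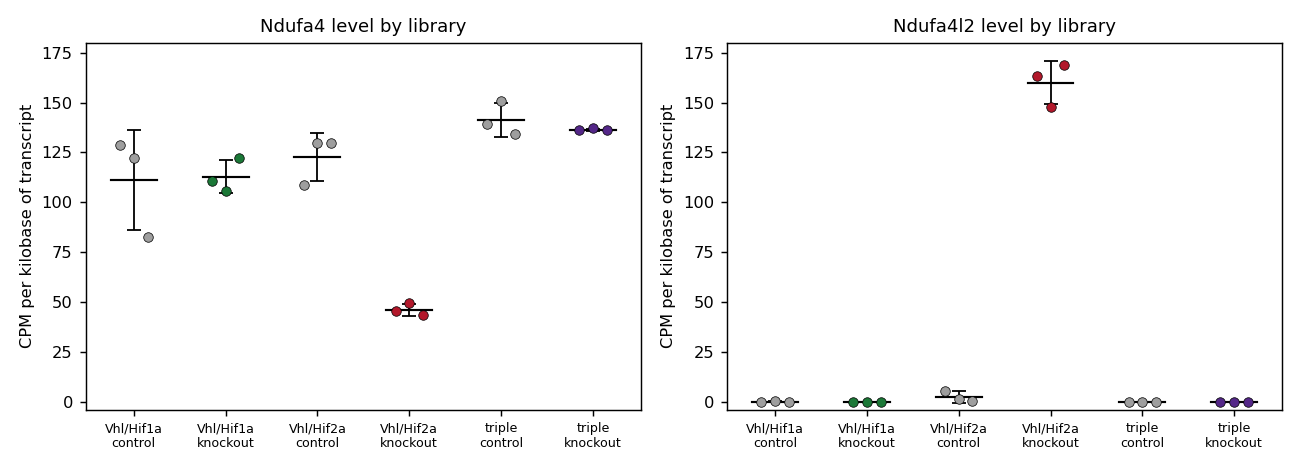
Level of Ndufa4 (left) and its paralogue Ndufa4l2 (right) in each library, in CPM per kilobase of transcript; bars are the mean ± SD (n = 3). The Vhl/Hif2a knockouts are the only group low for Ndufa4, at 43.6 to 49.3, and high for Ndufa4l2, at 148 to 169.

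Ndufv3 (ENSMUSG00000024038, chr17:31520115-31531331, plus strand) encodes an accessory subunit beside the NADH-binding module of complex I. It was at 72.0, 75.9 and 70.3 CPM in the Vhl/Hif2a knockouts and 31.7, 37.4 and 40.1 in their controls, with no overlap, and the knockout mean was 200% of control. The log2 fold change was 0.998 ± 0.14 (SE, edgeR adjusted p = 1.1e-04) and stayed between 0.91 and 1.07 without any 1 library. In the remaining groups it ran from 29.5 to 43.9 CPM, except for 55.3 in triple control 2.

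Cox7a1 (ENSMUSG00000074218, chr7:30184144-30186078, plus strand) encodes the heart and muscle isoform of a small complex IV subunit and had the lowest mean CPM of any member. It was at 2.88, 4.44 and 3.62 CPM in the Vhl/Hif2a knockouts and 1.74, 2.16 and 1.16 in their controls, again with no overlap. The log2 fold change was 1.10 ± 0.27 (SE, edgeR adjusted p = 0.0088), with a range of 0.90 to 1.33 without any 1 library. Its ubiquitous counterpart Cox7a2 was at 56.0, 60.9 and 57.1 CPM in these knockouts against 41.1, 52.6 and 52.6, a log2 fold change of 0.25 that was not called (edgeR adjusted p = 0.29). Cox7a2 is named here after its values were seen.

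Ndufa9 (ENSMUSG00000000399, chr6:126821721-126849136, minus strand) encodes a subunit where the matrix arm of complex I meets the membrane arm. It was at 70.2, 73.8 and 69.1 CPM in the Vhl/Hif2a knockouts and 57.7, 55.4 and 61.1 in their controls, without overlap. The log2 fold change was 0.29 ± 0.08 (SE, edgeR adjusted p = 0.018). The call was lost without control 1, control 2, knockout 1 or knockout 2, where the adjusted p was 0.053, 0.079, 0.053 and 0.071. Exons of 1700018A23Rik overlap Ndufa9 on the opposite strand.

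Sdhb (ENSMUSG00000009863, chr4:140961203-140979193, plus strand) encodes the iron-sulphur subunit of complex II. It was at 59.3, 61.0 and 60.5 CPM in the Vhl/Hif2a knockouts and 67.1, 76.0 and 80.5 in their controls, all knockouts being lower. The log2 fold change was -0.31 ± 0.09 (SE, edgeR adjusted p = 0.028). That call was lost without the filter on low counts (adjusted p = 0.079) and without control 2, control 3, or any 1 of the knockouts, where the adjusted p was 0.085, 0.13 and, for knockouts 1 to 3, 0.12, 0.068 and 0.071. The other complex II subunits did not move with it: log2 fold changes were 0.03 for the flavoprotein Sdha and -0.04 and 0.00 for the membrane anchors Sdhc and Sdhd, none called.

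**Figure D3:**
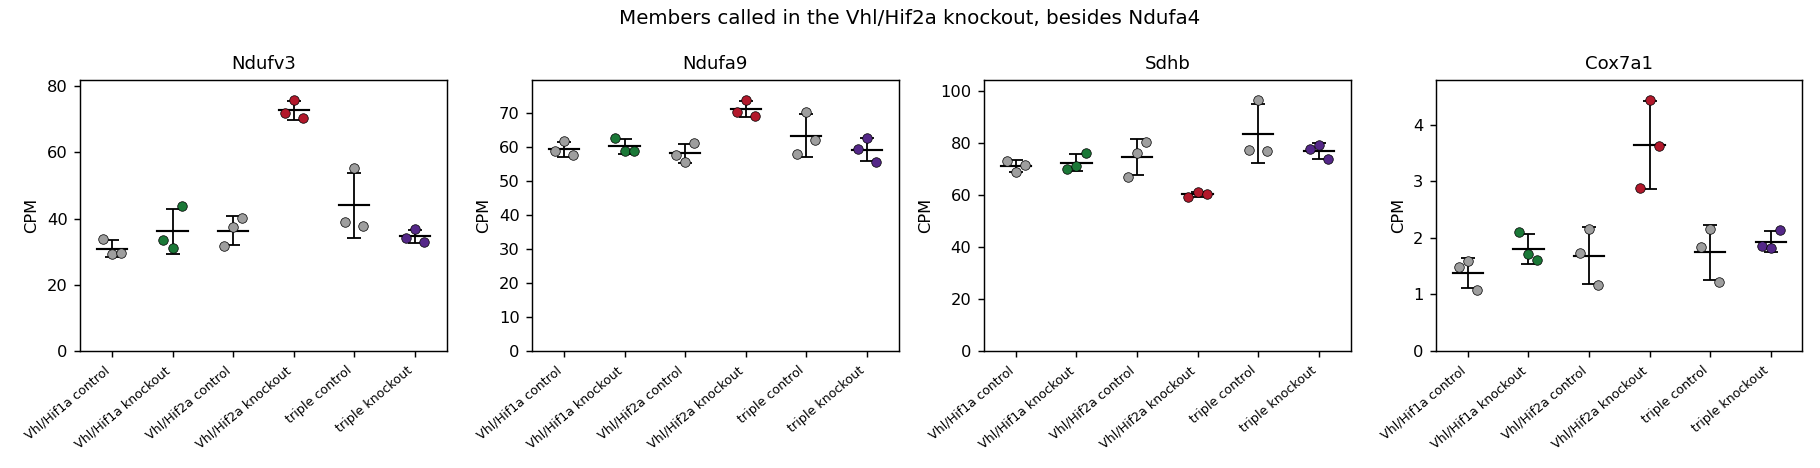
CPM in each library of the 4 members besides Ndufa4 that were called in the Vhl/Hif2a knockout; bars are the mean ± SD (n = 3). Ndufv3 lies at 70.3 to 75.9 CPM in those knockouts against 31.7 to 40.1 in their controls, while Ndufa9 and Sdhb are separated from their controls by only a few CPM.

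Other members of complex IV stayed nearer their controls in this comparison. Cox4i1, the main isoform of subunit 4, was at 265, 272 and 256 CPM in the Vhl/Hif2a knockouts and 209, 235 and 245 in their controls, higher in all 3 but not called (log2 fold change 0.20 ± 0.15, edgeR adjusted p = 0.46). Cox4i2, its hypoxic lung isoform and no member, had 11, 21 and 17 counts in the knockouts and 1, 7 and 0 in the controls, and was below the level at which genes were tested. Cox7a2l, a factor that joins complexes III and IV into supercomplexes, had a log2 fold change of 0.16 (edgeR adjusted p = 0.24). Atpif1, the inhibitor of the ATP synthase, which does not match the symbols of the members, had one of 0.05.

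By complex, the median log2 fold changes of nuclear members in the Vhl/Hif2a knockout were 0.10 for complex I, -0.02 for complex II, 0.08 for complex III, 0.17 for complex IV and 0.10 for the ATP synthase. All 7 mitochondrial complex I genes were lower, from -0.39 to -0.10, and mt-Cytb was at -0.25, with none called. The lowest was mt-Nd2, a membrane-arm subunit, and the only mitochondrial member above 0 was mt-Atp8, at 0.07. The 3 mitochondrial complex IV genes lay between -0.05 and -0.02. Every knockout library exceeded every control for 26 of the 91 members, where 18.5% of all genes did so, and the reverse held for 4, where 16.6% did. Summed alveolar macrophage markers were also higher in these knockouts, at 45340 to 47194 CPM against 36702 to 40007, with 6 of the 20 genes called higher and 2 lower by edgeR (13 positive, 7 negative). Summed monocyte or interstitial macrophage markers were at 139 to 165 CPM against 96.9 to 121, but of the 9 genes tested 2 were called higher and 1 lower, and the median log2 fold change was -0.02. Summed dendritic cell markers were lower, at 201 to 240 CPM against 242 to 294, with 6 of the 11 genes tested called lower, none higher, and a median of -1.02. Their part in the differences was not tested, and in bulk RNA a change in cell make-up and a change in RNA per cell cannot be told apart.

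**Figure D4:**
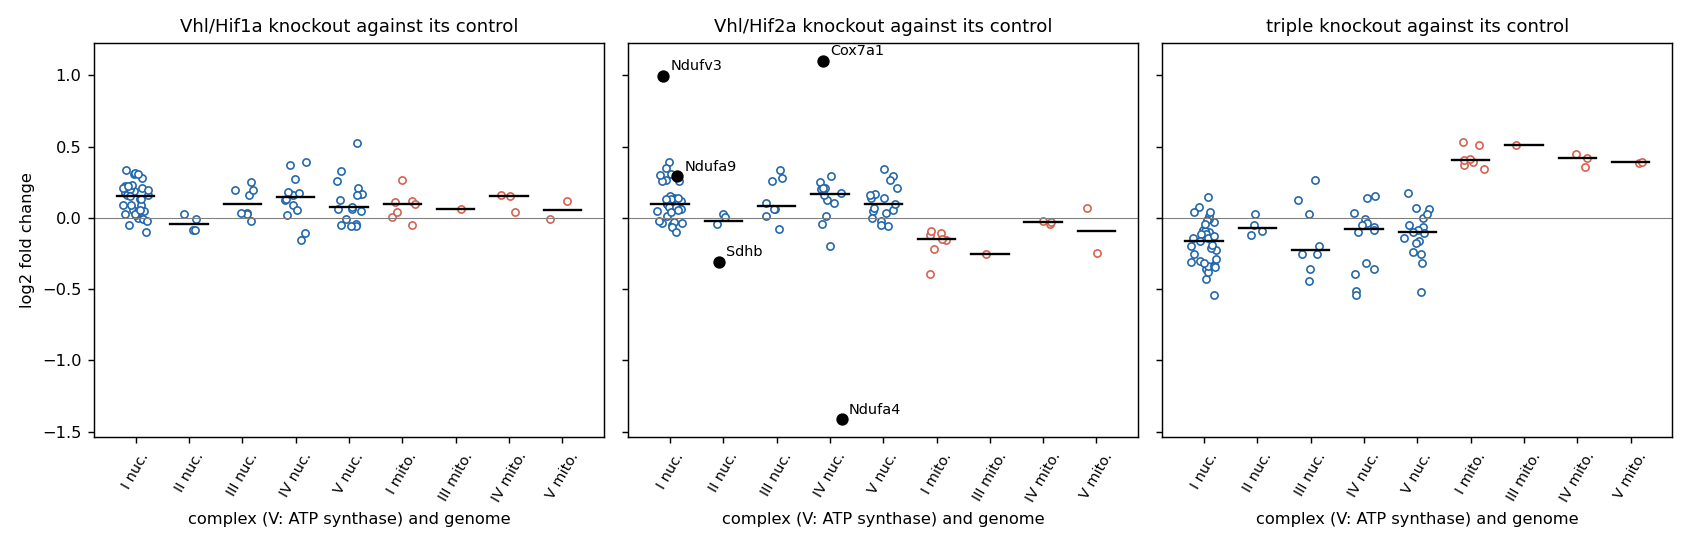
Log2 fold change of each of the 91 members against the matching control, by complex and genome (blue, nuclear; red, mitochondrial), in the 3 knockouts; filled black points are called with edgeR and lines are medians. Only the Vhl/Hif2a panel holds called members, and the 13 mitochondrial members of the triple cross lie together between 0.34 and 0.53.

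In the libraries labelled Vhl/Hif1a knockout, 0 of the 91 members were called with edgeR and 0 with DESeq2, where edgeR called 3.64% of all genes tested. An unadjusted edgeR p under 0.05 was reached by 4 members, all higher. They were Atp5k and Cox7a2, small subunits of the ATP synthase and of complex IV, with log2 fold changes of 0.53 and 0.37. The others were the complex I subunits Ndufb11 and Ndufb10, with 0.31 and 0.19. All 4 are named here after their values were seen. The lowest edgeR adjusted p of any member was 0.20. The share of all genes at the unadjusted threshold is not given here, so the count is not read as a result about the members. Atp5k was at 22.4, 18.5 and 31.7 CPM in the knockouts and 19.9, 16.04 and 14.5 in the controls, so knockout 2 lay within the range of the controls.

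The nuclear members as a group had a median log2 fold change of 0.13 in the Vhl/Hif1a knockout, and 62 of 78 were above 0, beside a median of 0.00 for all genes and 0.07 for the 2580 shortest genes. Without knockout 3, the library of this group with the smallest mitochondrial share and the largest nuclear share, the median was 0.02. The median of the mitochondrial members was 0.10, which became 0.26 without knockout 3 and -0.07 without control 3. By complex the nuclear medians were 0.16, -0.05, 0.10, 0.15 and 0.08 for complexes I to V. Ndufa4 changed by 0.02, Ndufv3 by 0.22, Cox7a1 by 0.39, Ndufa9 by 0.02 and Sdhb by 0.03 on the log2 scale. Every knockout library exceeded every control for 5 members, where 11.8% of all genes did so, and the reverse held for 1, where 12% did. Summed neutrophil markers were lower in these knockouts, at 76.7 to 88.98 CPM against 159 to 172, with 3 of the 7 genes tested called lower by edgeR and 1 higher. Summed alveolar macrophage markers were at 43887 to 50857 CPM against 39886 to 40550, but the 20 genes were divided, 11 positive and 9 negative, with 1 called higher and 2 lower. Summed dendritic cell markers were at 207.1 to 228.7 CPM against 228.9 to 247.4, with 10 of the 11 genes tested negative and 0 called by edgeR. These 2 ranges nearly met, and the sums use total counts, not scaled library sizes. The part of these lists in the values of the members was not tested.

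In the triple knockout 0 of the 91 members were called with edgeR and 0 with DESeq2, where edgeR called 0.0388% of all genes. With all 3 controls, 14 members had an unadjusted edgeR p under 0.05, 13 of them lower. The lowest edgeR adjusted p of any member was 0.43, and the share of all genes at the unadjusted threshold is not given here. The medians were -0.12 for nuclear and 0.41 for mitochondrial members, beside -0.01 for all genes tested and -0.10 for the 2580 shortest genes. All 13 mitochondrial members were higher, from 0.34 for mt-Nd1 to 0.53 for mt-Nd4. Every knockout library exceeded every control for 3 members, where 6.97% of all genes did so, and the reverse held for 9, where 8.34% did. Summed alveolar macrophage markers were higher here too, at 44212 to 44885 CPM against 33988 to 41244. Of the 20 genes 12 were positive and 8 negative, with 1 called higher by edgeR and 0 lower. Summed neutrophil markers were higher, at 151 to 175 CPM against 133 to 145, with all 7 genes tested positive and 0 called by edgeR. Summed monocyte or interstitial macrophage markers were lower, at 119 to 135 CPM against 138 to 146. Of the 9 genes tested in that list 3 were positive and 6 negative, with 1 called higher and 0 lower. Lung epithelium markers summed lower too, at 273 to 299 CPM against 317 to 364, with 2 genes positive, 7 negative and 0 called. Summed erythrocyte markers were at 2.60 to 2.96 CPM against 1.18 to 2.24. The part of these lists was not tested. By complex the nuclear medians were -0.17, -0.07, -0.22, -0.07 and -0.10 for complexes I to V. Without triple control 2 the medians were 0.01 for nuclear and 0.03 for mitochondrial members. The nuclear members then lay between -0.15 and 0.34 and the mitochondrial members between -0.06 and 0.12. An unadjusted edgeR p under 0.05 was reached by 0 members and by 338 of the 12900 genes tested. Of the members 0 were called, where edgeR called 0.0233% of all genes. Cox4i1, the most abundant nuclear member of complex IV, was at 230, 382 and 227 CPM in controls 1 to 3 and at 219, 234 and 219 in the knockouts, so that control 2 alone lay apart.

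**Figure D5:**
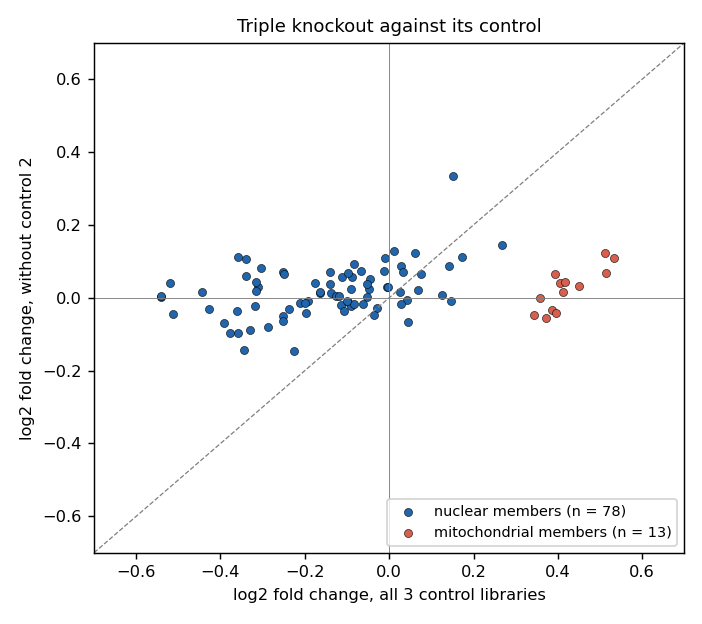
Log2 fold change of each member in the triple knockout with all 3 control libraries (horizontal) and without control 2 (vertical); the dashed line marks equal values. The mitochondrial members move from between 0.34 and 0.53 to between -0.06 and 0.12, and the median of the nuclear members moves from -0.12 to 0.01.

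The differences between the knockout effects were tested as contrasts in the same edgeR model. Between the Vhl/Hif2a and the Vhl/Hif1a effects, 1 of 91 members was called, where 2.44% of all genes were: Ndufa4, with a difference of -1.44 ± 0.18 on the log2 scale (SE, edgeR adjusted p = 1.4e-04). Ndufv3 differed by 0.77 ± 0.20 with an edgeR adjusted p of 0.057, and was called with DESeq2, without the filter on low counts, in a fit of only those 4 groups and without Vhl/Hif1a knockout 3. Between the Vhl/Hif2a and the triple effects, 3 members were called, where 7.99% of all genes were. Ndufa4 differed by -1.36 ± 0.18 (edgeR adjusted p = 1.1e-04) and Ndufv3 by 1.34 ± 0.20 (edgeR adjusted p = 4.0e-04), or by 1.14 without triple control 2. Ndufa9 differed by 0.39 ± 0.11 with an edgeR adjusted p of 0.038. That call was lost without Vhl/Hif2a control 1 or 2, any 1 of the Vhl/Hif2a knockouts, triple control 2, or triple knockout 1 or 3, and also without the filter on low counts or in a fit of only those 4 groups, with adjusted p from 0.052 to 0.12. Without triple control 3 the count of members called rose to 8, and without triple control 1 to 5. Between the Vhl/Hif1a and the triple effects 0 members were called with edgeR and 0 with DESeq2, where edgeR called 2.04% of all genes. An unadjusted edgeR p under 0.05 was reached by 11 members, and the share of all genes at that threshold is not given here. Without triple control 3 there was 1 call, Cox6a1, a complex IV subunit named after its value was seen.

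Genes that assemble or regulate the complexes were read from 9 lists with 127 genes tested. In the Vhl/Hif2a knockout, edgeR called 0 of 17 complex I and 0 of 4 complex II assembly genes. It called 0 of 6 complex III and 0 of 6 ATP synthase assembly genes. Of 18 genes of electron carriers and coenzyme Q synthesis it also called 0. In the order given, 0, 0, 1, 1 and 2 genes had an unadjusted edgeR p under 0.05. The share of all genes at that threshold is not given here. Of 23 complex IV assembly genes 2 rose, where 7.68% of all genes tested did: Cmc2, with a log2 fold change of 0.45, and Surf1, with 0.41, whose loss is known to cause complex IV deficiency. Surf1 was at 29.2, 26.7 and 27.7 CPM in the knockouts and 19.9, 20.5 and 22.8 in the controls. Of 14 regulators 2 rose, beside the same 7.68%: Afg3l2, a subunit of the inner-membrane m-AAA protease, with 1.02, and Lonp1, the matrix protease known to degrade COX4I1 in hypoxic cells, with 0.61. Of 25 genes for upkeep and transcription of mitochondrial DNA, Mterf2 fell by 1.25, at 0.298 to 0.508 CPM against 0.656 to 1.301, and its call was lost without the filter on low counts, in a fit of only this cross and without any 1 library other than control 2 (edgeR adjusted p 0.054 to 0.14).

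The list of hypoxic switches and tissue isoforms was drawn up with earlier results of these data known. Of its 14 genes tested, edgeR called 8 higher in the Vhl/Hif2a knockout and 0 lower, where 7.68% and 7.01% of all genes tested were. Its highest log2 fold change was 6.41, above that of Ndufa4l2, and belonged to Mgarp, which encodes a mitochondrial protein known as hypoxia-induced. Mgarp was at 34.7, 34.5 and 37.0 CPM in the knockouts against 1.07, 0.193 and 0.0465 in the controls. Cox7a1, described above, is 1 of the 8, and so is Higd1a, a complex IV-associated protein, with a log2 fold change of 1.90, named here after its value was seen.

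In the Vhl/Hif1a knockout 2 of the 127 genes of the 9 lists were called with edgeR, where 3.64% of all genes tested were: Afg3l2, with a log2 fold change of 0.85, and Bnip3, a mitophagy receptor, with 2.39. Afg3l2 was at 110, 122 and 117 CPM in these knockouts against 67.9, 64.0 and 62.2, and at 131, 136 and 124 in the Vhl/Hif2a knockouts against 62.9, 64.1 and 66.5, in both without overlap. In the triple knockout it was at 67.3, 74.7 and 71.2 against 75.8, 87.9 and 77.3, and no gene of these lists was called there with edgeR.

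Promoter windows are printed for the 5 members called with edgeR in the Vhl/Hif2a knockout. Each runs from 250 bases before to 50 after the start of the gene in RefSeq (GRCm38.p6), 5′ to 3′ on the strand of the gene: Ndufv3 at chr17:31519865-31520164, Ndufa9 at chr6:126849095-126849394, Sdhb at chr4:140961021-140961320, Cox7a1 at chr7:30183921-30184220 and Ndufa4 at chr6:11907401-11907700. Capitals mark ACGTG and GCGTG, the core letters of the hypoxia response element, and on the other strand CACGT and CACGC.
Ndufv3: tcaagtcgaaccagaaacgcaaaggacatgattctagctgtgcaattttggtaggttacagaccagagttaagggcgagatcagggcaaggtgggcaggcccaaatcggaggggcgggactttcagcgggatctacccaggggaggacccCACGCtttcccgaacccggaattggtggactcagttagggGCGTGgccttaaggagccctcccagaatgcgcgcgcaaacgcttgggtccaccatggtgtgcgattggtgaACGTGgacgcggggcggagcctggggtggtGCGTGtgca
Ndufa9: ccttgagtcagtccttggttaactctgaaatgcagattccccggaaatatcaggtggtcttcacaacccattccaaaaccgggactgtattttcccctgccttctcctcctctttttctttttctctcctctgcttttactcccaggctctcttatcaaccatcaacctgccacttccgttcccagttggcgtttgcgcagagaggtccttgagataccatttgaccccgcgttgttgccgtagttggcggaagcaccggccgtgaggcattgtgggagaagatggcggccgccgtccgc
Sdhb: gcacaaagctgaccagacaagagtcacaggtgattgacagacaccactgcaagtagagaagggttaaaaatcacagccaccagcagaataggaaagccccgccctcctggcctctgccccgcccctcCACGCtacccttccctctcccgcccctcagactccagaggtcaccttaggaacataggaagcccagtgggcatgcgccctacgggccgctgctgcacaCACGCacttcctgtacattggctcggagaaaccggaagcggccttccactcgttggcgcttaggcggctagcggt
Cox7a1: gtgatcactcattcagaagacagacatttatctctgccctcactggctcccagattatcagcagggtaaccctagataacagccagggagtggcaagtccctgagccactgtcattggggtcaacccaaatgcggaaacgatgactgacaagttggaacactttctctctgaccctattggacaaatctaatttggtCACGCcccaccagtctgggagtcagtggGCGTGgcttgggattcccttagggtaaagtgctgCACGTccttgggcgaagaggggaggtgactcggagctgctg
Ndufa4: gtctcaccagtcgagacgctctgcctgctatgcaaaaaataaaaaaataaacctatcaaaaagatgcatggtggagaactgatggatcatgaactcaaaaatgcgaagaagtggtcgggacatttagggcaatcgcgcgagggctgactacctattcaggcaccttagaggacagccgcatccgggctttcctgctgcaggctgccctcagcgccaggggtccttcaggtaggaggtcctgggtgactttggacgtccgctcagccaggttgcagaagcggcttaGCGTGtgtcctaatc

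The windows held 4 matches for Ndufv3, 3 for Cox7a1, 2 for Sdhb, 1 for Ndufa4 and 0 for Ndufa9, so the members that rose and those that fell both included windows with matches. Of the 78 nuclear members 66 had a window. On either strand ACGTG or GCGTG was in the window of 65.2% of them, against 46.7% of all genes with a window. Taken apart, ACGTG was in 24.2% against 21.8%, near the share of all genes, and GCGTG in 54.5% against 35.2%. The NRF-1 core CGCATGCG was in 13.6% against 2.07%, the ETS-type CCGGAAG in 25.8% against 9.93%, and the YY1-type ATGGCGGC, which Ndufa9 holds, in 9.09% against 2.60%. These are matches of letters and were not tested as sites. The 27025 genes with a window were not limited to the 12900 genes tested, while every member passed a level minimum. Shares among genes of like level or base composition were not tested.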

How the data were processed

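The authors deposited 1 table of expected counts (estimated reads per gene, not always whole) for 32789 genes and 18 libraries; the unit was taken from the values, 89.3% of which were whole. Per the submitters' processing notes, the tools were FastQC, cutadapt and STAR and the build was GRCm38. Not given in the sources used here are versions, the counting tool, the annotation and the strand setting. Per the labels' protocols, polyA RNA went into directional libraries.

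The deposited expected counts were rounded, and filterByExpr (edgeR, by group) left 12900 genes. Counts were scaled with TMM. CPM use scaled library sizes, except the level minimum, the shares of counts and the summed marker levels, which use total counts. One quasi-likelihood model of edgeR 4.0.16 (R 4.3.3), with 1 coefficient per group and no covariate, gave each knockout against its control and the differences between effects. P-values were adjusted by Benjamini-Hochberg over all 12900 genes and called under 0.05; an SE is the log2 fold change divided by the square root of F. DESeq2 1.42.0, another scaling, scaling from nuclear genes, no filter, a fit of only the groups compared, a replicate block and leaving out each library were alternatives. On simulated data for the Vhl/Hif2a comparison over 12900 genes, with 200 changed, 88% of changes of fold 2 and 10% of fold 1.3 were recovered. Positions and transcript lengths came from GENCODE M21 on GRCm38. Nuclear members were matched to RefSeq promoter windows by symbol.

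The members and lists were chosen with earlier results of these data known. Named genes were every called member, the Sdh subunits, Ndufa4, Ndufa4l2, Cox4i1, Cox4i2, Cox7a2l, Atpif1, Vhl, the mitochondrial members by range and up to 2 called genes at either end of a pathway list; others are said to be named after their values were seen. A companion series on loss of Vhl alone was not analysed here.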

Additional observations from a re-analysis of the deposited data

Results flagged for a closer look

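The effect in the Vhl/Hif2a cross differed from that in another cross for 3 members, by the contrast of effects in edgeR. Ndufa4 differed from its Vhl/Hif1a effect by -1.44 (adjusted p = 1.4e-04) and from its triple effect by -1.36 (adjusted p = 1.1e-04), on the log2 scale. Ndufv3 differed from its triple effect by 1.34 (edgeR adjusted p = 4.0e-04). Ndufa9 differed from its triple effect by 0.39 (edgeR adjusted p = 0.038), with a call that was lost without triple control 2 (edgeR adjusted p = 0.052).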

How the results depend on the processing

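The counts of members called in the Vhl/Hif1a and triple knockouts were 0 under every alternative run. In the Vhl/Hif2a knockout a fit of only its 2 groups called 9 members and leaving out 1 library 3 to 4. For the Vhl/Hif2a minus Vhl/Hif1a effect the count was 2 without the filter on low counts, with DESeq2 and with only those groups, and 1 to 2 without 1 library. For Vhl/Hif2a minus triple it was 2 to 8, and for Vhl/Hif1a minus triple 0 to 1, without 1 library. The cause was not tested. Changes near 0 that were not called turned sign without 1 library. In the Vhl/Hif1a knockout the ranges were -0.15 to 0.14 for Ndufa4 (lowest without control 3, and -0.04 without knockout 3), -0.012 to 0.060 for Sdhb (lowest without knockout 3) and -0.00064 to 0.051 for Ndufa9 (lowest without knockout 1). In the triple knockout they were -0.088 to 0.0010 for Ndufa4 and -0.17 to 0.0037 for Sdhb (highest without control 2), and -0.047 to 0.34 for Cox7a1 (lowest without control 3). With nuclear counts as the denominator, the mean share of nuclear members in the triple knockouts was 0.658%, and by complex I, III, IV and V 0.1502%, 0.0637%, 0.128% and 0.259%. On that denominator complex II took 0.0563% in the Vhl/Hif1a controls, 0.0527% in their knockouts and 0.0545% in the Vhl/Hif2a knockouts, and complex V 0.260% in the Vhl/Hif1a controls. Deviations of same-numbered control and knockout libraries had r from -0.20 to 0.19, and those of other pairs within a cross from -0.24 to 0.17. With 3 libraries a group this cannot decide whether the replicate number is a pairing. With a replicate block the Vhl/Hif2a knockout again had 5 members called and the Vhl/Hif2a minus triple effect 2. Ndufa9 was not called in that difference (edgeR adjusted p = 0.086), nor was Mterf2 in the Vhl/Hif2a knockout (0.076). In the simulated data most changes of fold 1.3 were not recovered. That simulation changed 200 genes and gave 101 calls, where the real Vhl/Hif2a comparison gave 1895 with edgeR. The share recovered therefore does not carry over to the real comparison.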
